A study of Mus musculus with 8 samples.

Results

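The data set holds 8 forkhead transcription factor genes, Foxd1, Foxb1, Foxc1, Foxc2, Foxf1, Foxf2, Foxd3 and Foxh1, measured in mouse embryonic stem cells before and after 6 days of differentiation toward heart progenitors. They were found by gene name on the arrays, which carried 9 probes for them (Foxf1 has 2), and all 8 were among the 25892 genes tested. They were picked from an earlier look at signal differences between these same groups, so their levels and differences are given as a description, with standard errors and without p-values. Wild-type cells were compared with cells heterozygous for R141C, a missense mutation of the heart homeobox factor Nkx2-5, which is carried by every cell of the line. Each of the 4 groups (wild type and R141C, each at day 0 and day 6) had 2 cultures, called biological replicates by the submitters, and the labels name no second line or clone of either genotype. At day 6 the cells had formed embryoid bodies without the self-renewal factor LIF, first in hanging drops and then in suspension, and had been plated on gelatin for the last day.

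The labelled cell states were checked against marker genes. All 8 pluripotency markers fell from day 0 to day 6 in both genotypes, with 8 called in wild type and 7 in R141C (limma adjusted p under 0.05). All 8 cardiomyocyte markers rose in wild type, 6 of them called. In R141C 4 rose and 4 fell, and 1 was called higher. Over all genes tested, 12.9% were called lower and 11% higher in wild type, and 8.03% and 7.6% in R141C. Nkx2-5 RNA had log2 signals of -1.27 and -2.02 in wild type and 1.84 and -0.77 in R141C at day 0, and of 1.93 and 1.79 in wild type and 1.53 and 1.58 in R141C at day 6. The probe does not distinguish the mutant allele, so it does not check the genotype. Between 55.8% and 70.5% of 55583 probes were well above background on an array. Replicate arrays correlated across genes at 0.982 to 0.994, and wild-type replicate 1 at day 0 was closer to R141C replicate 1 (0.991) than to its own replicate (0.983). At day 6, R141C replicate 2 correlated at 0.988 and 0.989 with the wild-type cultures and at 0.982 with R141C replicate 1. All arrays lay on 1 slide, with genotype and day in fixed positions, so slide position and group cannot be told apart.

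Forkhead factors bind DNA through a winged-helix domain and often act early, opening chromatin or fixing regional identity before tissues differentiate. In the mesoderm, Foxf genes mark the lateral plate and splanchnic layer next to the endoderm, where they respond to hedgehog signals, while Foxc genes act in paraxial mesoderm, endothelium and the second heart field that builds the outflow tract. Foxd1 is known from kidney stroma and the optic and hypothalamic neuroepithelium, Foxb1 from the mammillary region of the hypothalamus, Foxd3 from the epiblast and neural crest, and Foxh1 is the DNA-binding partner of Smad proteins in Nodal signalling.

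Several of these genes are neighbours in the genome. Foxf1 and Foxc2 lie on chromosome 8 together with Foxl1, and Foxf2 and Foxc1 on chromosome 13 together with Foxq1. Foxd1 is elsewhere on chromosome 13. RefSeq promoter windows, from 250 bases before to 50 bases after the start of the gene (build GRCm38.p6), were at hand for 4 of the 8 genes. The 3 from chromosome 13 are shown because Foxd1 and Foxc1 were lower in R141C at day 6 and Foxf2 was not. Capitals mark matches to CCAAT or TATAA, read on either strand.
Foxd1, chr13:98353995-98354294, plus strand: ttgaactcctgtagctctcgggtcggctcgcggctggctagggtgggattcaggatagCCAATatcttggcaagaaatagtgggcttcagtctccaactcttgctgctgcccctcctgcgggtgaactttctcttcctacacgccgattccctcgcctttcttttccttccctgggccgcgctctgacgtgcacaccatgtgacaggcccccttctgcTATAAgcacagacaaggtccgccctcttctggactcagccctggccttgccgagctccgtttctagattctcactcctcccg
Foxc1, chr13:31806396-31806695, plus strand: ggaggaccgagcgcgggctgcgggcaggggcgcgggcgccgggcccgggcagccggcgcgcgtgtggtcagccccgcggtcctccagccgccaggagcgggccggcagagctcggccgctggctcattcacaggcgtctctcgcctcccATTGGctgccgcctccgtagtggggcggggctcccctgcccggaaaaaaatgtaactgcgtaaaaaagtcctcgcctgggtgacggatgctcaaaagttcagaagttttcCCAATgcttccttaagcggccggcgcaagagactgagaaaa
Foxf2, chr13:31625566-31625865, plus strand: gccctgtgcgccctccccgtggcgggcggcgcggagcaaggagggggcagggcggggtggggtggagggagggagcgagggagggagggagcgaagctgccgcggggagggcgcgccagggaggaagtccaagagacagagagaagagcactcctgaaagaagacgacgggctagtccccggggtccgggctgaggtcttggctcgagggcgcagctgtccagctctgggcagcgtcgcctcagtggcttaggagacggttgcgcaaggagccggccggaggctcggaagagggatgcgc

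The Foxd1 window had a CCAAT match at -192 and a TATAA match at -32, counted from the gene start. The Foxc1 window had CCAAT matches at -101 on the minus strand and at +9. The Foxf2 window had neither, and its GC content of 71.3% compared with 67.3% in Foxc1, 57.7% in Foxd1 and a median of 52.7% over 32851 mouse windows. CCAAT occurred in 37.4% of those windows and TATAA in 24.9%. A search of both strands for an Nkx2-5 element (TNAAGTG, found in 11.5% of all windows) matched only the fourth window, that of Foxd3, at +15. The forkhead core (GTAAACA, 3.6%), the Foxh1 element (AATNNACA, 12.2%) and the GATA element (AGATAA, 11.2%) matched none of the 4. These are letter matches in 300 bases and show neither binding nor its absence.

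Levels below are log2 processed signals relative to the 75th percentile of each array, so 0 is the 75th percentile, and each difference is a limma estimate with its standard error (SE, 2 arrays per group). They compare the same probe across samples and cannot be set against each other between genes. Positions are those of the probes in build mm9. A difference was called when its limma p-value, adjusted over all 25892 genes by the Benjamini-Hochberg method, was under 0.05.

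Foxd1 (probe A_52_P128134, chromosome 13, 99126452 to 99126511, plus strand) was present at day 6 mainly in wild type. Its log2 signals were -6.37 and -6.34 in wild type at day 0, not well above background, and -5.40 and -4.94 in R141C at day 0. At day 6 they were -1.31 and -1.48 in wild type and -4.29 and -4.03 in R141C. The 4 groups did not overlap, in the order wild type day 0, R141C day 0, R141C day 6, wild type day 6. At day 6 the signal was 6.80-fold lower in R141C, a difference of -2.76 ± 0.23 (SE). From day 0 to day 6 it was at least 27.5-fold higher in wild type (4.96 ± 0.23) and 2.02-fold higher in R141C (1.01 ± 0.23). Signals this dim depend on the background correction. With normexp the log2 change was 2.63 in wild type, under the 27.5-fold bound, and 0.50 in R141C. The day 0 difference between genotypes was then 0.27 in place of 1.18. Fewer cells with Foxd1 and less Foxd1 RNA per cell cannot be told apart in bulk RNA, here or for the genes that follow.

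Foxb1 (A_55_P2026405, chromosome 9, 69605559 to 69605618, minus strand) had much the same order of groups. At day 0 its log2 signals were -6.55 and -6.96 in wild type, not well above background, and -4.85 and -4.33 in R141C. At day 6 they were -1.07 and -1.04 in wild type and -4.23 and -3.22 in R141C. Both R141C arrays at day 6 were below both wild-type arrays, and they lay close to the R141C arrays of day 0. The difference at day 6 was -2.67 ± 0.37, or 6.38-fold lower in R141C. At day 0 R141C was at least 3.72-fold higher (2.17 ± 0.37). The change over 6 days was at least 43.1-fold in wild type (5.70 ± 0.37), while in R141C the difference was 0.86 ± 0.37 and was not called. With normexp background correction the log2 change in wild type was 3.03 and the day 0 difference 0.55, both under these bounds. The day 6 difference between genotypes was then -1.84 in place of -2.67. Over the 8 arrays Foxd1 and Foxb1 correlated at r = 0.981, the highest value among the pairs of these 8 genes; the arrays share 4 group means, so this describes their common pattern only.

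**Figure D1:**
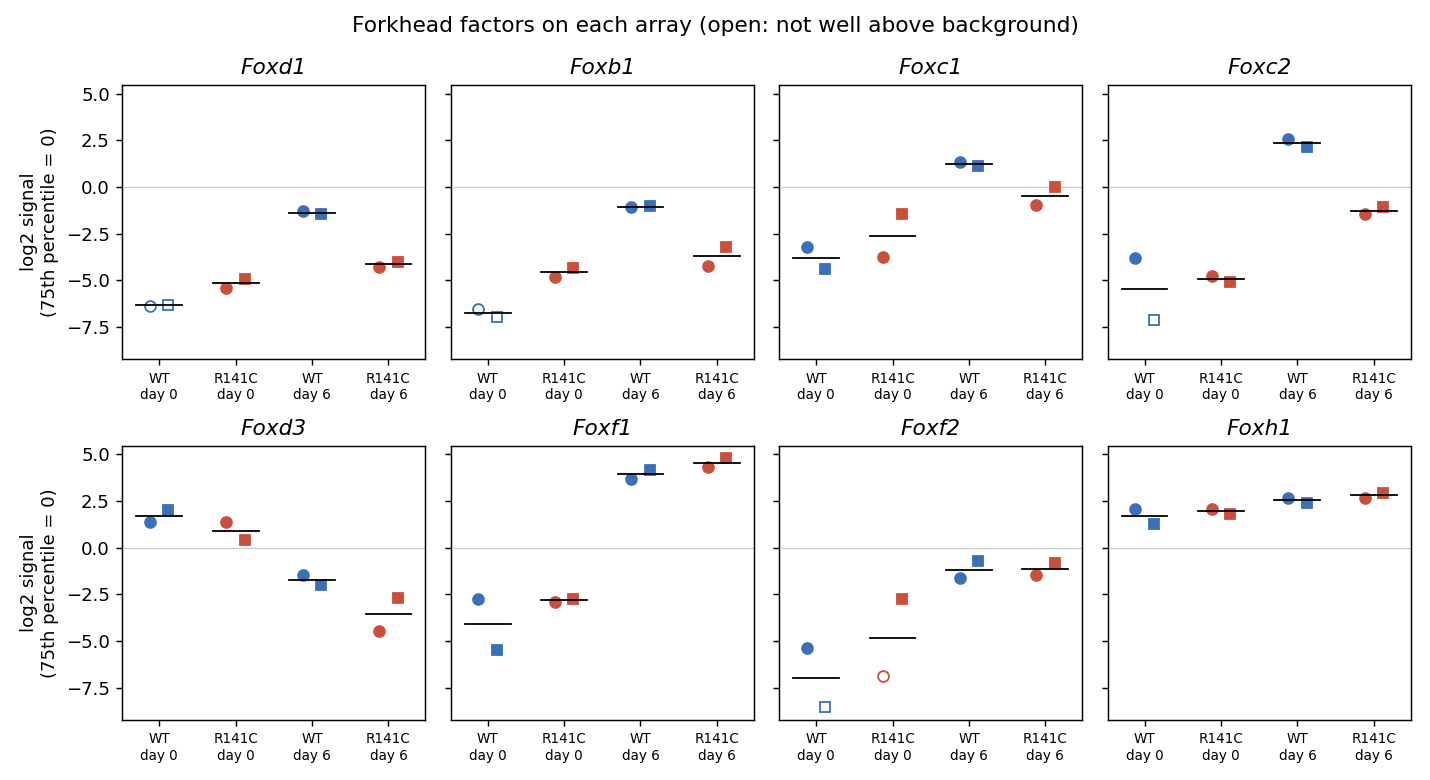
Log2 processed signal of each gene on each of the 8 arrays, by group, with 0 at the 75th percentile of the array. Circles are replicate 1 and squares replicate 2, open symbols are probes not well above background, and lines are group means. Foxd1, Foxb1, Foxc1 and Foxc2 are highest on both wild-type arrays at day 6, Foxf1 and Foxf2 are high at day 6 in both genotypes, and Foxd3 is highest at day 0.

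Foxc2 (A_51_P196444, chromosome 8, 123642693 to 123642752, plus strand), which acts in paraxial and outflow mesoderm and in lymphatic endothelium, showed the largest gap between genotypes of the 8 at day 6. Its log2 signals at day 6 were 2.55 and 2.15 in wild type and -1.47 and -1.10 in R141C, with no overlap. At day 0 they were -3.79 and -7.15 in wild type, the second not well above background, and -4.76 and -5.10 in R141C, inside the range of the wild-type pair. At day 6 the signal was 12.4-fold lower in R141C (-3.63 ± 0.95), which was not called. Both genotypes gained signal, 225-fold in wild type (7.82 ± 0.95) and 12.5-fold in R141C (3.65 ± 0.95), and both changes were called. The wild-type change ranged from 5.93 with normexp background correction to 9.49 without wild-type replicate 1 of day 0. The day 0 difference of 0.54 ± 0.95 turned to -1.14 without wild-type replicate 2.

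Foxc1 (A_55_P1967761, chromosome 13, 31902423 to 31902482, plus strand), its close relative in the same tissues, gave log2 signals of 1.33 and 1.14 in wild type and -0.99 and 0.02 in R141C at day 6. At day 0 the values were -3.23 and -4.41 in wild type and -3.77 and -1.44 in R141C. The genotypes were apart at day 6 and overlapped at day 0. The day 6 difference was -1.73 ± 0.79, or 3.31-fold lower in R141C, and was not called. In wild type the signal rose 33.3-fold (5.06 ± 0.79), and in R141C the difference of 2.12 ± 0.79 (4.35-fold) was not called. At day 0 the difference of 1.21 ± 0.79 came from R141C replicate 2 and was 0.045 without it.

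Foxf1, needed in the mouse for lateral mesoderm and its blood vessels, was high at day 6 in both genotypes. On its brighter probe (A_55_P2059765, chromosome 8, 123611944 to 123612003, plus strand) the log2 signals were -2.75 and -5.48 in wild type and -2.91 and -2.73 in R141C at day 0. At day 6 they were 3.71 and 4.14 in wild type and 4.33 and 4.80 in R141C. The genotypes overlapped at day 0, and at day 6 both R141C arrays were just above both wild-type arrays. The gain was 263-fold in wild type (8.04 ± 0.79) and 167-fold in R141C (7.38 ± 0.79), called in both. The wild-type change was 9.40 without wild-type replicate 1 of day 0 and 6.03 with the mean of both probes, against 6.73 in R141C with that mean, so the data give no order of the genotypes. The day 6 difference between genotypes was 0.64, with a 95% interval of -1.24 to 2.51.

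The second Foxf1 probe (A_51_P262111, chromosome 8, 123610681 to 123610740) lies upstream in the transcript, has no stop codon in any of its 3 reading frames, and is shown because it measures another stretch of the same transcript.
Foxf1 probe A_51_P262111: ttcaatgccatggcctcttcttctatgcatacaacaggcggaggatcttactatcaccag

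Its log2 signals were -6.89 and -6.32 in wild type and -8.09 and -8.12 in R141C at day 0, and -2.70 and -2.46 in wild type and -2.25 and -1.79 in R141C at day 6. Both probes put R141C just above wild type at day 6, by 0.56 on this probe, and both were higher at day 6 than at day 0 in each genotype. It was well above background on all 4 arrays of day 6 but at day 0 only on wild-type replicate 2, so no day 0 difference or gain is given for it.

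Foxf2 (A_51_P248865, chromosome 13, 31723139 to 31723198, plus strand), known from gut and palate mesenchyme, was the least certain of the 8. At day 0 its log2 signals were -5.40 and -8.56 in wild type and -6.87 and -2.78 in R141C, and 1 of the 2 arrays of each genotype was well above background. At day 6 they were -1.65 and -0.73 in wild type and -1.49 and -0.83 in R141C. The genotypes overlapped at both times. The day 6 difference was 0.03, with a 95% interval of -3.45 to 3.51 that leaves room for large differences either way. In wild type the signal rose 55.3-fold (5.79 ± 1.46), and in R141C the difference of 3.66 ± 1.46 was not called. With normexp background correction these changes were 2.89 and 2.14.

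Foxd3 (A_55_P2160815, chromosome 4, 99325170 to 99325229, plus strand), which maintains mouse epiblast and embryonic stem cells, ran the other way in time. Its log2 signals at day 0 were 1.39 and 2.03 in wild type and 1.39 and 0.40 in R141C. At day 6 they were -1.47 and -1.98 in wild type and -4.47 and -2.67 in R141C. All day 0 arrays were above all day 6 arrays. The signal fell 10.8-fold in wild type (-3.44 ± 0.63) and 22.1-fold in R141C (-4.47 ± 0.63). At day 6 R141C was 3.59-fold lower (-1.85 ± 0.63), which was not called, and the 2 R141C arrays lay further apart than any other pair for this gene.

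Foxh1 (A_55_P1973578, chromosome 15, 76498767 to 76498826, minus strand), which in the mouse acts with Nkx2-5 on an enhancer of Mef2c in the anterior heart field, moved least. Its log2 signals at day 0 were 2.07 and 1.28 in wild type and 2.06 and 1.82 in R141C, and at day 6 they were 2.68 and 2.42 in wild type and 2.69 and 2.93 in R141C. The day 6 arrays were above the day 0 arrays, and the genotypes overlapped at day 0. The difference over 6 days was 0.88 ± 0.30 in wild type and 0.87 ± 0.30 in R141C, neither called, and the genotype difference at day 6 was 0.26, with a 95% interval of -0.46 to 0.97.

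**Figure D2:**
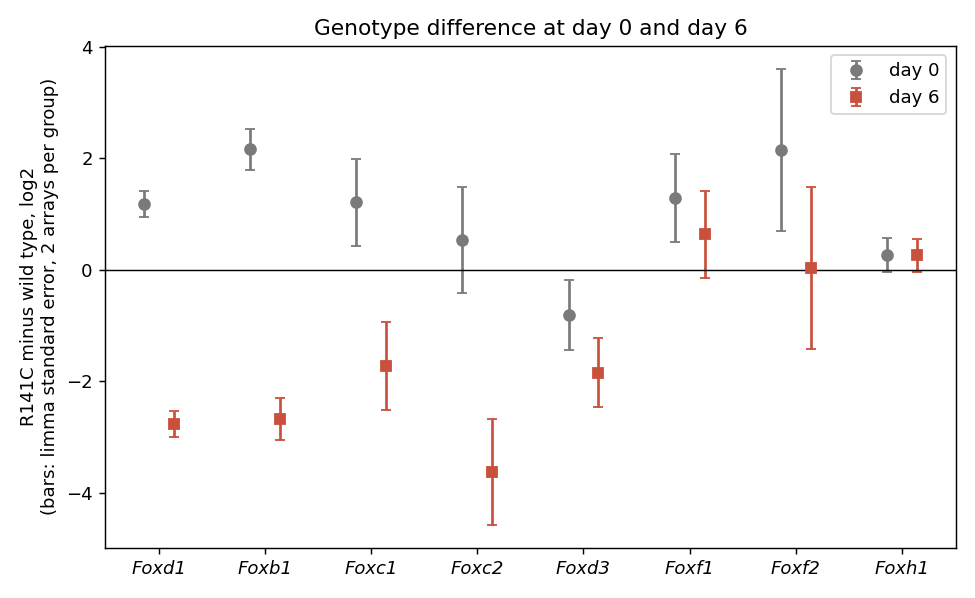
R141C minus wild type, on the log2 scale, for each gene at day 0 (circles) and day 6 (squares), with limma standard errors from 2 arrays per group. Foxd1, Foxb1, Foxc1 and Foxc2 lie above 0 at day 0 and below 0 at day 6, and Foxf1, Foxf2 and Foxh1 lie at or above 0 at both times.

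At day 6, Foxd1, Foxb1, Foxc1, Foxc2 and Foxd3 were lower in R141C without overlap between the groups, Foxf1 and Foxh1 were higher without overlap, and Foxf2 overlapped. Over all genes tested, 16.5% were lower without overlap and 27.8% higher. All 8 representing probes were well above background on all 4 arrays of day 6. Foxd1 alone was called, among 17 of 25892 genes (0.0657%, or 0.0386% lower), and nothing is read from that count because these values were known when the genes were picked. Its call was lost in 7 of the 9 other ways of processing that were tried and without any of 7 of the 8 arrays, left out in turn, while its difference stayed between -2.90 and -1.85. Without R141C replicate 2 at day 6, Foxb1 was called as well as Foxd1, and without either wild-type array of day 0, Foxc2 was called and Foxd1 was not. The median difference of the 8 was -1.79, against 0.07 over all genes tested.

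Some lists of cell-type markers were also lower in R141C at day 6. All 8 cardiomyocyte markers were lower in R141C at day 6 (median difference -3.82), with a summed log2 level of 7.98 and 8.33 in wild type and of 3.35 and 6.70 in R141C. Of 6 epicardium markers, 5 were lower (median -1.31; summed levels 5.62 and 5.38 against 4.96 and 4.96). All 6 smooth muscle markers (median -0.94; summed levels 7.09 and 7.70 against 6.02 and 6.89) and all 6 neural markers tested (median -1.55; 4.37 and 4.27 against 2.88 and 3.21) were lower too. Fibroblast and mesenchyme markers were split, with 3 of 6 lower and 3 higher (median -0.58; 5.00 and 5.64 against 4.48 and 6.00). None of these lists had a called gene in limma, and 6 cardiomyocyte, 3 epicardium, 2 smooth muscle, 5 neural and 1 fibroblast markers had an unadjusted p under 0.05. Of each list at least 5 markers were well above background on every array of day 6, except that R141C replicate 1 had 4 epicardium markers. R141C replicate 1, which had the lowest cardiomyocyte level, was also the lower of the R141C pair for Foxd1, Foxb1, Foxc1, Foxc2 and Foxd3, and for Foxf1, Foxf2 and Foxh1 as well. Among the other lists, pluripotency markers were higher in R141C at day 6 (6 of 8, median 0.39). Medians were -0.04 for endothelium (4 of 6 lower), -0.22 for endoderm (4 of 6) and -0.17 for neural crest (3 of 5). For paraxial mesoderm the median was -0.13 (4 of 6) and for blood markers -0.81 (4 of 6). The part of all these markers in the forkhead differences was not tested.

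At day 0, limma called none of the 8 and no gene of 25892 (0%; 1166 genes had an unadjusted p under 0.05). Foxd1 and Foxb1 were higher in R141C without overlap and Foxd3 lower, against 14.5% and 14.3% of all genes, and the other 5 overlapped. The median difference was 1.20, against 0.0046 over all genes. The R141C means of day 0 were also higher for smooth muscle markers (6 of 6, median 1.16) and cardiomyocyte markers (8 of 8, median 0.82). The same held for epicardium (6 of 6, median 0.63) and fibroblast markers (5 of 6, median 0.57). Pluripotency markers were mostly lower (7 of 8, median -0.65), and the other lists went both ways. In summed level, R141C replicate 1 was below wild-type replicate 1 for smooth muscle (7.538 against 7.815) and cardiomyocyte markers (3.923 against 3.940). R141C replicate 2 had the highest summed log2 level of the 4 day 0 arrays for both these lists, 8.89 and 5.22. It also had the highest signal of the 4 for Foxd1, Foxb1, Foxc1, Foxf1 and Foxf2. The part of these markers in the day 0 values of the 8 genes was not tested.

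**Figure D3:**
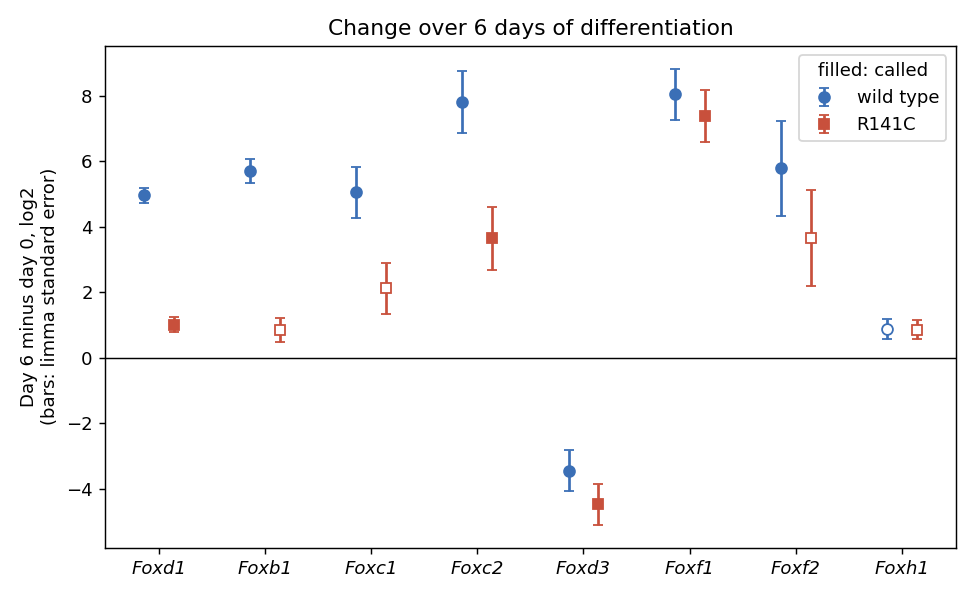
Day 6 minus day 0, on the log2 scale, for each gene in wild type (circles) and R141C (squares), with limma standard errors. Filled symbols are called differences, 7 in wild type and 4 in R141C. The wild-type values of Foxb1, Foxc1, Foxc2 and Foxd1 lie above those of R141C, and the wild-type day 0 signals of Foxb1 and Foxd1 were not well above background.

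Over 6 days, in wild type 6 of 8 were called higher (Foxd1, Foxb1, Foxc1, Foxc2, Foxf1 and Foxf2) and Foxd3 lower, where 11% of all genes were called higher and 12.9% lower. In R141C Foxd1, Foxc2 and Foxf1 were called higher and Foxd3 lower, against 7.6% and 8.03% of all genes. The Foxd1 and Foxc2 calls in R141C were lost without R141C replicate 1 of day 0, without any 1 array of day 6, or with no filter on dim probes. The median difference was 5.38 in wild type and 1.57 in R141C, against -0.12 and -0.03 over all genes. These comparisons share no arrays, but each shares arrays with the genotype comparisons above. Nothing is read from these counts and medians, because the values were known when the genes were picked.

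The difference between the genotype effects of day 6 and day 0 was below 0 for all 8 genes. It was -4.84 ± 0.53 for Foxb1, -4.17 ± 1.34 for Foxc2, -3.95 ± 0.32 for Foxd1, -2.94 ± 1.11 for Foxc1, -2.12 ± 2.06 for Foxf2, -1.03 ± 0.88 for Foxd3, -0.66 ± 1.11 for Foxf1 and -0.01 ± 0.42 for Foxh1. The sizes for Foxb1 and Foxd1 rest on wild-type day 0 signals not well above background, and with normexp background correction they were -2.38 and -2.12, so the genes are not ranked. The Foxf1 value turned to 0.71 without wild-type replicate 2 of day 0 and to 0.70 with the mean of both probes. Leaving out 1 array of day 0 moved Foxc2 between -5.84 and -2.49, Foxc1 between -4.10 and -1.77 and Foxf2 between -4.17 and -0.08. The Foxh1 value turned above 0 under 4 of 15 alternatives. No gene of 25892 was called in this comparison (0%; 1460 had an unadjusted p under 0.05 in limma). The median was -2.53 for the 8 genes and 0.08 for all genes.

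The chromosome 8 neighbours of Foxf1 did not share 1 pattern. Fendrr, a long noncoding RNA transcribed away from Foxf1 and needed in the mouse for heart and body wall formation, had its probe at -22.4 kb from the brighter Foxf1 probe. Its log2 signals were -8.06 and -8.21 in wild type and -7.44 and -7.95 in R141C at day 0, and -4.28 and -4.54 in wild type and -2.76 and -3.66 in R141C at day 6. As with Foxf1, its signal was higher at day 6 than at day 0 in both genotypes. Both R141C arrays of day 6 were above both wild-type arrays, though all were dim. None of the 4 arrays of day 0 was well above background for it. It rose at least 4.38-fold in wild type (limma adjusted p = 0.00103) and at least 8.40-fold in R141C (adjusted p = 0.00104). Fendrr passed the filter for testing only through the arrays of day 6, where it is higher, so its rise is a description. The day 6 genotype difference of 1.20 was not called (limma adjusted p = 0.413). Mthfsd, a gene of folate metabolism between Foxf1 and Foxc2, differed by -0.14 between genotypes at day 6 (adjusted p = 0.89).

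Foxl1, a factor of gut mesenchyme 11.7 kb above the Foxc2 probe, was also lower in R141C at day 6. Its log2 signals at day 6 were -3.91 and -4.36 in wild type and -7.31 and -5.73 in R141C, where neither was well above background. It rose at least 5.29-fold in wild type (limma adjusted p = 0.0345), and in R141C neither day was well above background. Foxl1 passed the filter for testing only through the wild-type arrays of day 6, where it is high, so its values are a description. At day 6 it was at least 2.64-fold lower in R141C, which was not called (adjusted p = 0.518). Probes for 2 unnamed transcribed intervals near Foxf1 differed between genotypes by -0.01 and 0.76 at day 6. The median of all chromosome 8 genes differed between the genotypes by -0.12 at day 6, against 0.04 on chromosome 13.

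**Figure D4:**
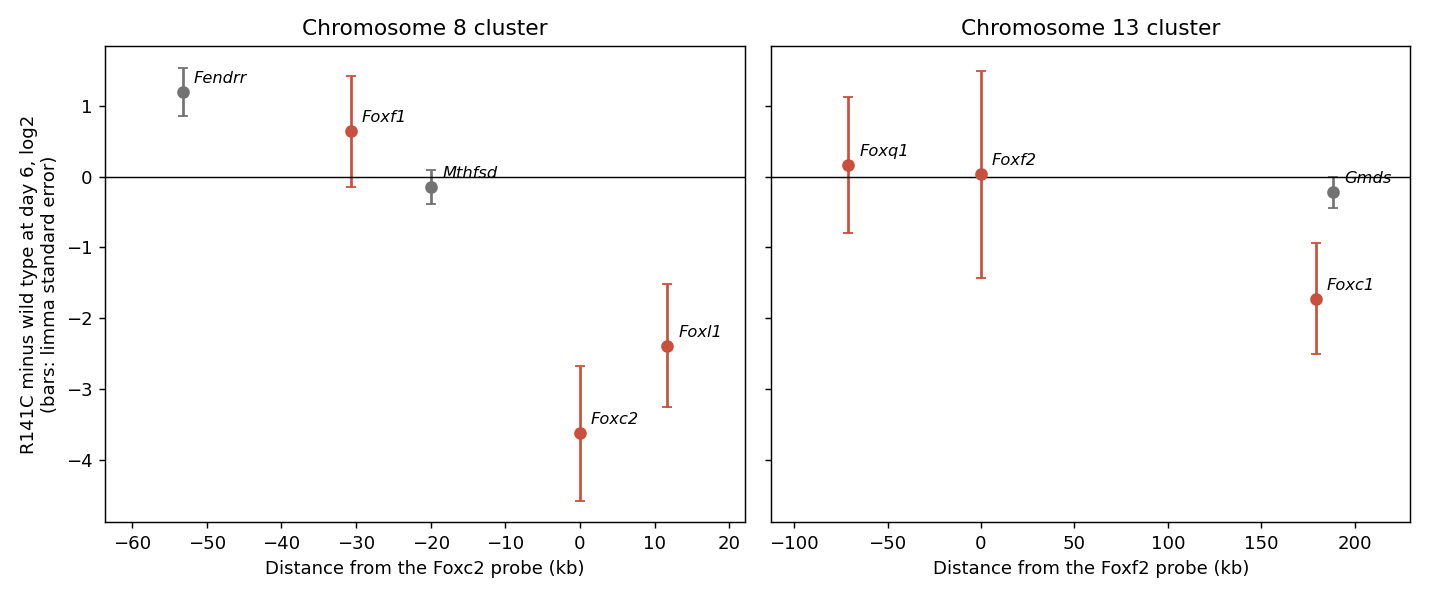
R141C minus wild type at day 6, on the log2 scale, against distance in kb from the Foxc2 probe (left, chromosome 8) or the Foxf2 probe (right, chromosome 13), with limma standard errors. Forkhead genes are red and other named neighbours grey, and Foxc2, Foxl1 and Foxc1 lie below 0 while Fendrr, Foxf1, Foxf2 and Foxq1 lie above it.

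On chromosome 13, Foxq1, a factor of surface epithelia with its probe at -70.9 kb from that of Foxf2, had log2 signals at day 6 of 0.12 and 1.04 in wild type and 0.41 and 1.08 in R141C. At day 0 they were -2.59 and -3.05 in wild type and -3.72 and -0.47 in R141C. As with Foxf2, the genotypes overlapped at both times. It rose 10.6-fold in wild type (limma adjusted p = 0.0453) and the R141C difference of 2.84 missed the threshold (adjusted p = 0.0976). Gmds, which makes GDP-fucose and whose probe lies 9.1 kb from that of Foxc1, differed by -0.22 at day 6 (adjusted p = 0.808). Between Foxf2 and Foxc1, probes for both strands of an unnamed transcribed interval fell over 6 days in wild type (-2.23 and -2.42; adjusted p = 0.00678 and 0.0128) and in R141C (-1.77 and -2.05; adjusted p = 0.0213 and 0.0307), opposite in direction to both genes. Within 100 kb of Foxd1, none of the 4 other transcripts tested was called between genotypes at either time. An unnamed transcript at -6.9 kb from the Foxd3 probe (A_55_P1976724) fell as Foxd3 did, with log2 differences of -3.31 in wild type (adjusted p = 0.00222) and -2.58 in R141C (adjusted p = 0.00777).

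The rest of the forkhead family gave a background for these genes. Of 36 other forkhead genes, 33 were tested, and limma called none between genotypes at day 6 or at day 0 (8 and 0 had an unadjusted p under 0.05). At day 6 their median difference was -0.05, with 15 above 0 and 18 below. The brightest, Foxl2 (0.16 ± 0.24, adjusted p = 0.872) and Foxp1 (-0.69 ± 0.20, adjusted p = 0.426), were not called. Chosen after the values were seen, Foxd2, a relative of Foxd1 in kidney and somite mesenchyme, came closest to the Foxd1 pattern. Its log2 signals at day 6 were 0.17 and -0.09 in wild type and -3.50 and -2.51 in R141C, a difference of -3.04 ± 0.50 that was not called (limma adjusted p = 0.183).

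Over 6 days, 9 of the 33 were called higher and 6 lower in wild type, and 4 higher and 5 lower in R141C. Over all genes, 11% were called higher and 12.9% lower in wild type, and 7.6% and 8.03% in R141C. Foxa2, the pioneer factor of endoderm, rose 140-fold in wild type (limma adjusted p = 0.000632) and 48.1-fold in R141C (adjusted p = 0.00204). Foxa1, its relative, rose 52.1-fold in wild type (adjusted p = 0.00885), and Foxd2 22.3-fold (adjusted p = 0.00201). Foxn4, known from retinal progenitors, fell 11.5-fold in wild type (adjusted p = 0.00364) and 10.9-fold in R141C (adjusted p = 0.0059). Foxr2 fell 5.63-fold (adjusted p = 0.00852) and Foxo4, a factor downstream of insulin signalling, rose 4.20-fold (adjusted p = 0.00391) in R141C. Leaving out a wild-type array of day 6 reduced the wild-type count of 15 to 3 or 4, and leaving out wild-type replicate 2 of day 0 to 6.

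**Figure D5:**
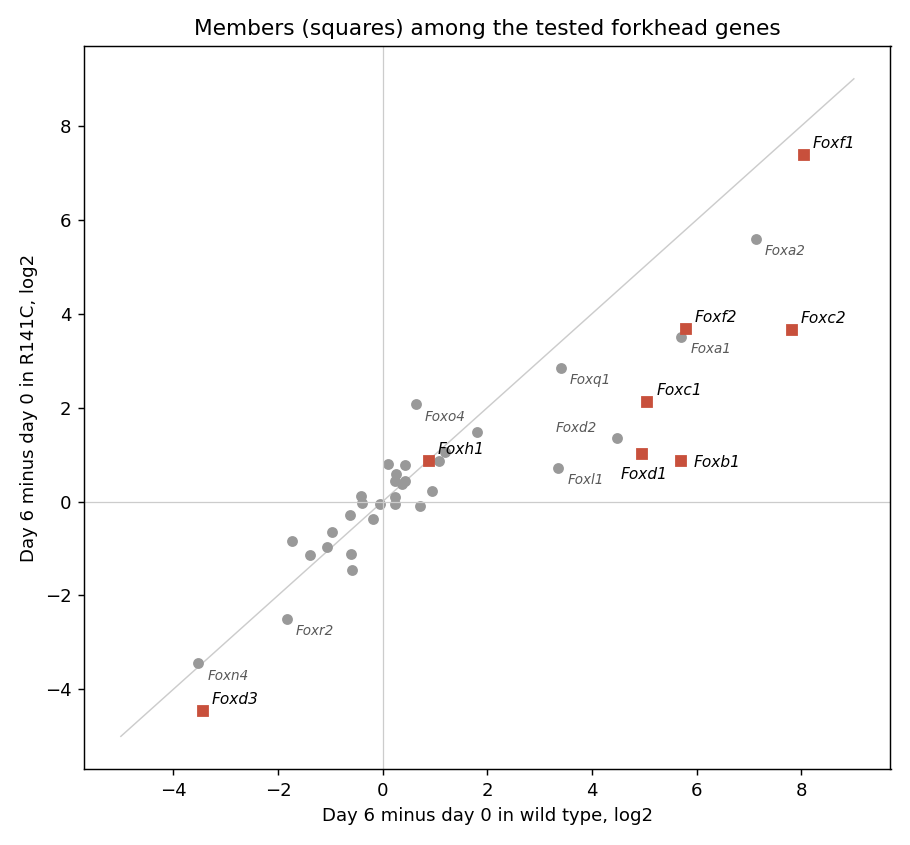
Day 6 minus day 0 in R141C (vertical) against wild type (horizontal), on the log2 scale, for the 8 genes (red squares) and other forkhead genes tested (grey circles), with the line of equal change. Foxd1, Foxb1, Foxc1 and Foxc2 lie below the line together with Foxd2 and Foxl1, and Foxf1 and Foxh1 lie nearer to it. Foxl1 was well above background only in wild type at day 6.

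Genes of the pathways and tissues around these factors were counted in the same way. In the counts of this and the next paragraph, rose and fell mean called higher and called lower. Of 14 hedgehog pathway genes, 6 rose and none fell in wild type, and 5 rose and 1 fell in R141C. The ligand Shh, not well above background at day 0, rose at least 25.1-fold in wild type (limma adjusted p = 0.0045) and at least 4.89-fold in R141C (adjusted p = 0.0273), where 1 of 2 arrays of day 6 was above it. Shh passed the filter for testing only through wild type at day 6, so its rise is a description. Ihh rose 22.8-fold and 32.6-fold (limma adjusted p = 0.00194 and 0.00206), and the co-receptor Gas1 15.2-fold and 9.22-fold (adjusted p = 0.00178 and 0.00534). Of 15 lateral plate and splanchnic genes, 11 rose in wild type, and 10 rose and 1 fell in R141C. They included the heart and limb factors Hand2, up 567-fold and 179-fold (adjusted p = 0.000248 and 0.000456), and Gata6, up 144-fold and 55.5-fold (adjusted p = 0.00045 and 0.00135).

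Among 15 tested genes of paraxial mesoderm, where Foxc genes act, 5 rose and 1 fell in wild type and 2 rose and 1 fell in R141C. Mesp1, which marks early cardiac and paraxial mesoderm, rose 128-fold and 136-fold (limma adjusted p = 0.000428 and 0.000726). Of 10 second heart field genes, 8 rose in wild type and 5 in R141C, Isl1 by 107-fold and 48.5-fold (adjusted p = 0.000332 and 0.000726). Of 14 endothelial genes, 11 rose in wild type and 10 in R141C, the junction gene Cdh5 by 144-fold and 95.5-fold (adjusted p = 0.000726 and 0.00148). Among 14 genes of the Nodal pathway in which Foxh1 acts, 7 rose and 3 fell in wild type and 5 rose and 3 fell in R141C. The streak gene Gsc rose 19.3-fold and 8.41-fold (adjusted p = 0.00655 and 0.0275), and the co-receptor Tdgf1 fell 6.82-fold and 6.81-fold (adjusted p = 0.0141 and 0.0204).

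Between genotypes at day 6, limma called none of the 89 genes tested in these lists and the forebrain list (19 had an unadjusted p under 0.05). The median difference was -0.38 in the hedgehog list (11 of 14 below 0), -0.94 in the lateral plate list (10 of 15), -0.52 in the paraxial list (12 of 15), -0.66 in the second heart field list (7 of 10), 0.14 in the endothelial list (6 of 14) and -0.21 in the Nodal list (9 of 14), against 0.07 over all genes. The list of forebrain and hypothalamus regulators covers the tissue of Foxb1 and Foxd1, and 10 of its 15 genes on the array were tested. All 10 were below 0, with a median of -1.75. They included Otx2 (-1.05 ± 0.67, limma adjusted p = 0.717) and Irx3 (-2.10 ± 0.64, adjusted p = 0.449). Six3, another of the 10, passed the filter for testing only through wild type at day 6, so its value is a description. Over 6 days, 1 of the 10, Irx3, was called higher in each genotype and none lower.

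The nearest genes to each pattern were sought among 2915 named genes that varied over the 8 arrays, and are given as a description. Foxd1 was nearest to Sncaip, which binds synuclein (r = 0.992), and Shd (0.985). Foxb1 was nearest to Corin, the protease that activates natriuretic peptide (0.980), Sbk3 (0.974) and Irx1 (0.972).

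Foxc1 was nearest to the fibrillin gene Fbn1 (0.991), Arhgef40 (0.990) and the guidance cue gene Slit2 (0.990). Foxc2 was nearest to the collagen gene Col14a1 (0.995), the homeobox gene Meis1 (0.995) and Irx3 (0.992). Foxf1 was nearest to S100a1 (0.996), Pi16 (0.996) and the caveola gene Cavin2 (0.996). Foxf2 was nearest to Fam160a1 (0.992), Tiam2 (0.991) and the N-cadherin gene Cdh2 (0.989). Foxd3 was nearest to the protease gene Pcsk6 (0.993), Uchl1 (0.990) and another forkhead gene, Foxr2 (0.989). Foxh1 was nearest to Defa29 (0.974), Msx2 (0.971) and Defa42 (0.968). With 8 arrays in 4 groups, such values follow mainly from the order of the group means.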

How the data were processed

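RNA of 8 cultures was hybridized to 1 single-colour Agilent array each. The processed signal was deposited by the authors as a linear intensity, with background subtracted and not normalized between arrays. Mean spot signal and local background were deposited as intensity, and spot flags (other) as 0 or 1. Per the file headers Feature Extraction was version 11.5.1.1; the submitters' processing notes give 10.5.1.1. The deposited series matrix holds log2 values, used as an alternative.

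Outlier spots were removed, spots of a probe averaged, and log2 signals shifted to a 75th percentile of 0. The brightest probe represented a gene. It was tested if both arrays of some group had it well above background (25892 of 34736 names). The fit was limma 3.58.1 in R 4.3.3, with 4 group means on 8 arrays (4 residual, 2.70 prior degrees of freedom), two-sided, for 5 comparisons. The number of arrays limits the precision. A fold against a group not above background on any array is given as "at least". It was taken against the lowest signal among bright probes of each array, or the gene's own signal where higher. It is a bound for this background correction only, and with normexp the wild-type changes of Foxd1 and Foxb1 lay under it. Markers' summed level is log2 of the sum of linear signals. The brightest probes of a list dominate it, so it compares the same list across arrays and is not a level of every marker. The fit was tested on simulated data. Figures used Python 3.11.15 and matplotlib 3.10.9.

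The 8 genes, the lists and the tests were chosen with earlier results of these data known. Named were these genes, Nkx2-5, up to 4 called genes with the largest change per list (else 2 of highest signal), the 3 genes correlating best with each gene (SD of at least 1), and transcripts within 100 kb. Some results that this rule named are not reported here.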

Additional observations from a re-analysis of the deposited data

How the results depend on the processing

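Of 632 recomputed differences of the 8 genes, 594 moved by less than the spread between replicates, 38 moved by more, and none that was called reversed. The single call between genotypes at day 6 (Foxd1) became 0 with quantile normalization, normexp background correction (offset 50), no filter on dim probes, the deposited series matrix values, eBayes trend and robust settings or only the arrays compared, and stayed 1 with the mean of a gene's probes or chromosome medians removed; leaving out arrays in turn gave 0 to 2. In wild type over 6 days, the 7 calls ranged from 5 to 8 with an array left out, and the 15 of other forkhead genes from 3 to 14. In R141C, the 4 calls became 2 with no filter and ranged from 2 to 5 with an array left out, and the 9 of other forkhead genes became 5 with only the arrays compared and ranged from 5 to 9. Fewer samples or more genes tested can lower counts; otherwise the cause was not tested. Neither day 0 nor the difference between days gave a call of a forkhead gene under any alternative.

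Same-numbered arrays deviated with correlations of -0.136 (genotypes at day 0), 0.066 (at day 6), 0 (days in wild type) and 0.339 (days in R141C), which did not meet the criterion for pairing. The chromosome 8 genes, Foxf1 and Foxc2 among them, did deviate with the number in all 4 groups. Deviations were taken from the mean of the 4 arrays of the same day, both genotypes together, so they include any genotype difference. Their median was 0.14 to 0.22 in replicate 1 and -0.27 to -0.02 in replicate 2. With a replicate block the day 6 count became 0, and the counts over 6 days were 7 in wild type and 4 in R141C (14 and 10 for other forkhead genes). With the R141C day 0 numbers crossed, an alternative added after seeing the data, the same counts were 0, 7 and 2 (12 and 6).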

Other observations

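Other tissue programmes around the forkhead genes were also measured. Of 12 neural crest genes tested, where Foxd3 is known to act, 7 were called higher in wild type and 6 in R141C over 6 days. None was called lower. Sox9, which also acts in cartilage and heart valves, rose 66.3-fold and 22.9-fold (limma adjusted p = 0.00035 and 0.000991), and Snai2 32.4-fold and 16.8-fold (adjusted p = 0.00468 and 0.0138). Of 11 kidney and nephric genes tested, the tissue of Foxd1 stroma, 3 were called higher and 1 lower in wild type. In R141C 3 were called higher and 2 lower. Lhx1 rose 136-fold and 26.3-fold (adjusted p = 0.000332 and 0.00112), and Six2 53.1-fold and 10.5-fold (adjusted p = 0.000965 and 0.00815). Of 12 pan-neural genes tested, 1 was called higher and 3 lower in wild type, and none higher and 4 lower in R141C. Among those called lower was the neuronal tubulin Tubb3, by 2.57-fold and 7.17-fold (adjusted p = 0.0238 and 0.00302). Between genotypes at day 6 limma called none of these (3, 2 and 4 had an unadjusted p under 0.05 in the neural crest, kidney and pan-neural lists), with medians of -0.19 for neural crest, -0.54 for kidney and -0.18 for pan-neural genes. Blood markers rose in both genotypes (6 of 6 each), with a median difference between genotypes at day 6 of -0.81.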
